A study of Mus musculus with 14 samples.

Results

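The 7 genes Acp5, Ctsk, Mmp9, Calcr, Atp6v0d2, Ocstamp and Dcstamp, which mark osteoclasts, were followed through 14 mouse tissue sections profiled with 10x Genomics Visium, a probe-based assay that counts transcripts, as unique molecular identifiers (UMIs), in barcoded spots laid over a section of formalin-fixed, paraffin-embedded tissue. They were taken by symbol, and all 7 were present among the 32589 features of the tables of purchased mice and among the 19465 features of the tables of a C1qa cross. Levels are CPM, UMIs of a gene scaled to the same total in every section, summed over spots on tissue in which at least 1000 genes were detected.

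The purchased mice were wild-type C57BL/6 and gave 1 section per group: fetal liver at E13.5 and E14.5, adult spleen, and 3 leg bone sections. The bone of a mouse at postnatal day 8 (P8) was fixed and sectioned whole, without decalcification. The marrow of an 89-week-old mouse was cryosectioned so that it came away from the bone before embedding. A leg bone from a mouse aged 6 months was decalcified in EDTA. The cross gave 2 sections per group, all E14.5 fetal livers or spleens of mice aged 3 months, from wild-type offspring and offspring without C1qa, the gene of a chain of complement C1q, of heterozygous parents. The knockout was present in every cell type of the animals and from conception on. No bone of the knockout mice was sectioned.

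Osteoclasts are the multinucleated cells that resorb bone. They form when precursors of the macrophage lineage, driven by M-CSF and RANKL, fuse with one another, settle on mineralised surfaces and pump acid and proteases into a sealed space beneath them. In a growing long bone they work at the front where calcified cartilage is replaced by bone and along the shaft as the marrow cavity widens. Among the 7 genes, Dcstamp and Ocstamp encode membrane proteins needed for fusion, and Atp6v0d2 encodes a subunit of the proton pump that also takes part in fusion. Acp5 encodes tartrate-resistant acid phosphatase, the classical histochemical stain for osteoclasts, Ctsk encodes cathepsin K, the main collagen-degrading protease of the resorption space, and Mmp9 encodes gelatinase B. Calcr encodes the calcitonin receptor, through which resorption is inhibited.

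The genes lie apart from one another in the mouse genome (GRCm38.p6, gene positions from RefSeq), except that Mmp9 (chr2:164940326-164955850) and Ocstamp (chr2:165395450-165400394) share a chromosome. Ctsk is at chr3:95499210-95509387, Atp6v0d2 at chr4:19876838-19922566, Calcr at chr6:3685678-3764713, Acp5 at chr9:22126727-22135746 and Dcstamp at chr15:39745930-39760938. RefSeq promoter windows, from 250 bases before to 50 bases after a transcription start, were at hand for 3 of the 7 genes, in 6 windows. They are shown because Ctsk and Acp5 had similar spot patterns in the young bone while Calcr, sparse in counts, had little correlation with either. For each gene the window with the most motif matches is printed 5′ to 3′, in lower case with matches to the motifs of 4 regulators of osteoclast differentiation in capitals.
Ctsk (chr3:95498960-95499259, + strand): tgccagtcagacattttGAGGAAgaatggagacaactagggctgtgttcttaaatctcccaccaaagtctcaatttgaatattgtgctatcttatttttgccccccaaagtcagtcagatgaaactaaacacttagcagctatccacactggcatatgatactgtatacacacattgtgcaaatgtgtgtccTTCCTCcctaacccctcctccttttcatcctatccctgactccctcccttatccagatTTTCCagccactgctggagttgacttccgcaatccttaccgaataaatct
Acp5 (chr9:22130549-22130848, - strand): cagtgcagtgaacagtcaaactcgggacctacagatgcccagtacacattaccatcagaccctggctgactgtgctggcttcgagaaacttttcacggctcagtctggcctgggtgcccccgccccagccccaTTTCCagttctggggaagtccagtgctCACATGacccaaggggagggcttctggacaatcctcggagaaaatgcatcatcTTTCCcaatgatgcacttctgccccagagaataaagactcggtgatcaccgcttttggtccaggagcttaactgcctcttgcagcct
Calcr (chr6:3764664-3764963, - strand): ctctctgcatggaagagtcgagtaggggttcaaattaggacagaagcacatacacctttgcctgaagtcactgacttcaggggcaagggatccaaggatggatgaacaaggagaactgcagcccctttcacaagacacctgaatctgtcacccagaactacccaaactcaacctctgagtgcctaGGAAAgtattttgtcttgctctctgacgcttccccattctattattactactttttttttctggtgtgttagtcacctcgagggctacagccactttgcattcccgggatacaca

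The letters searched, on both strands, were GAGGAA for the PU.1 core, GGAAA for the NFAT core (which overlaps the PU.1 letters where an A follows), CATGTG for the MITF E-box and TGANTCA for the AP-1 site. The Ctsk window held 2 matches to the PU.1 core and 1 to the NFAT core. The Acp5 window held 2 matches to the NFAT core and 1 to the E-box, and the Calcr window held 1 match to the NFAT core. The other 2 Acp5 windows held 1 match to the NFAT core each, and the other Calcr window held none. No member window held the AP-1 letters. Among all 32851 windows, 28.3% held the PU.1 core, 61.3% the NFAT core, 14.2% the E-box and 7.81% the AP-1 site, so that such matches are common, and they are given as a description of these windows alone.

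Depth differed between sections. In 13 of the sections 491 to 2320 spots passed, with 4225805 to 56182915 UMIs, whereas 15 of 814 in-tissue spots of the EDTA-treated bone passed, with 37167 UMIs. The P8 section kept 1085 spots and 21977622 UMIs (median 16659 UMIs per spot), and the 89-week section 932 spots and 8434382 UMIs (median 8513). The tissue labels were checked against marker lists. Genes of bone matrix took 12.4% of UMIs and genes of cartilage 3.62% in the P8 section, which is a section of bone as well as of marrow, against 0.0719% and 0.00299% in the 89-week section, whereas 10 neutrophil genes took 0.531% and 2.62%. A spot can hold several cells, and with sums over spots, fewer osteoclasts and less RNA per osteoclast cannot be told apart. Of the fetal livers of the cross, those numbered 4 stand apart from those numbered 2 in their hepatocyte and cartilage genes. Intervals and floors below cover counting error only, and a count of 0 is read against a floor of 3 counts.

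The P8 bone held the highest levels of 6 of the 7 genes among the 13 deep sections. Ctsk stood at 2361 CPM, Mmp9 at 1725 CPM and Acp5 at 1540 CPM. Atp6v0d2 stood at 76.3 CPM, Ocstamp at 31.8 CPM and Dcstamp at 23.1 CPM. Calcr was the exception, with 2.55 CPM from 56 counts, below its level in all 4 spleens of the cross (3.62 to 10.2 CPM). It had 0 and 0.0261 CPM in the purchased fetal livers and up to 3.98 CPM in those of the cross. Osteoblast and osteocyte genes also summed to more in the cross spleens (17.1 to 39.3 CPM) than in the purchased spleen (2.22 CPM). The part of this difference between the sets of tables in the Calcr levels was not tested. Levels are not compared between genes, whose probes differ.

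**Figure D1:**
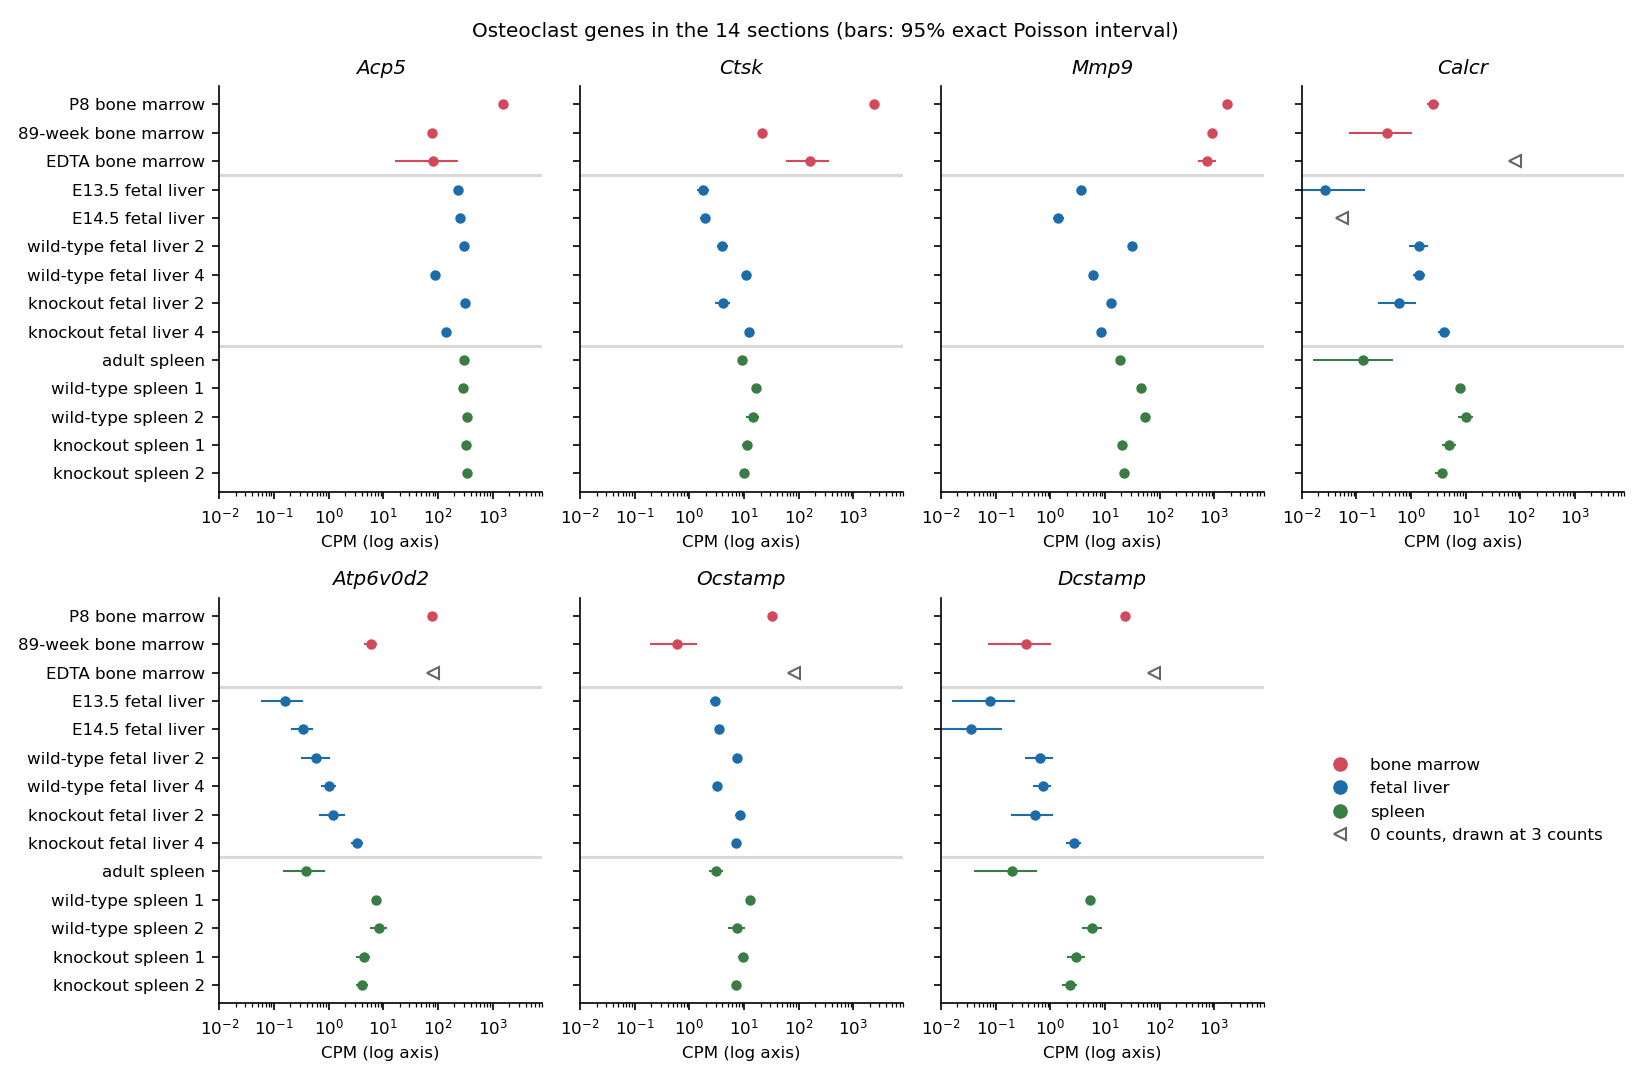
Level of each osteoclast gene in each of the 14 sections, in CPM on a log axis, with 95% exact Poisson intervals for counting error (points without a visible bar have intervals narrower than the point). The P8 section lies to the right of all others with at least 491 passing spots for every gene except Calcr, and Acp5 lies above its 89-week level in all 11 sections outside bone.

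The P8 section was first compared with the 89-week section, the comparison of young bone with aged marrow that the rule for these genes names. With 1 section per age there is no test, and because the old marrow had been separated from bone, age and preparation cannot be told apart. The protease gene Ctsk had 51887 counts at P8 and 179 at 89 weeks, 2361 against 21.2 CPM, a ratio of 111 (95% interval 96.1 to 130, exact for the counts). Acp5 had 33855 and 651 counts, 1540 against 77.2 CPM, a ratio of 19.96 (18.5 to 21.6). Mmp9 had 37914 and 7614 counts, 1725 against 903 CPM, a ratio of 1.91 (1.86 to 1.96), so that this gene alone stayed within 2-fold.

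The genes of fusion and of the proton pump were lower in counts and differed as widely. Dcstamp had 508 counts at P8 and 3 at 89 weeks, 23.1 against 0.356 CPM, a ratio of 65.0 (22.1 to 316). Ocstamp had 699 and 5 counts, 31.8 against 0.593 CPM, a ratio of 53.7 (22.9 to 166). Atp6v0d2 had 1677 and 50 counts, 76.3 against 5.93 CPM, a ratio of 12.9 (9.72 to 17.4). The receptor gene Calcr had 56 and 3 counts, 2.55 against 0.356 CPM, a ratio of 7.16 (2.33 to 35.8). The 89-week counts of Calcr and Dcstamp were at the floor and that of Ocstamp barely above it.

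Of the 7 genes, 6 were at least 2-fold higher at P8, and none was at least 2-fold higher at 89 weeks. Of 14792 genes with at least 10 counts in the sections together, 30.3% were at least 2-fold higher at P8 and 16.2% at least 2-fold higher at 89 weeks. The median log2 ratio was 4.32 over the 7 genes and 0.28 over all genes tested. Restricting P8 to its 276 marrow spots, defined as spots with at least 0.5% of UMIs in neutrophil genes, left the ratio of Acp5 at 19.98 and that of Ctsk at 107, and gave 1.43 for Mmp9. These marrow spots still held bone, with 41029 CPM of Col1a1 against 199 CPM in the 89-week spots defined alike, and 51 of the 276 were among the 109 spots richest in bone genes. In the 89-week section, spots marked as off the tissue held 63.2 CPM of Ctsk and 109 CPM of Acp5, more than the spots on it.

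Detection per spot differed in the same direction for 6 of the genes. Before any correction for depth, Ctsk had a UMI in 98.9% of P8 spots and 12.2% of 89-week spots, Acp5 in 92.3% and 43.0%, and Mmp9 in 94.0% and 98.9%. After each spot had been thinned to 2000 UMIs, which left out 5 P8 spots and 2 of the 89-week spots, these shares were 83.5% and 3.23% for Ctsk, 66.9% and 13.9% for Acp5, and 72.9% and 83.8% for Mmp9. Atp6v0d2 was detected in 12.04% and 1.29% of thinned spots, Ocstamp in 5.74% and 0%, Dcstamp in 3.52% and 0.108%, and Calcr in 0.463% and 0%. In the 109 P8 spots richest in cartilage genes, a tissue in which osteoclasts are not expected, the unthinned shares were 93.6% for Ctsk, 77.1% for Acp5, 75.2% for Mmp9 and 12.8% for Atp6v0d2, so that for these genes the level of a spot says more than the presence of a UMI. Mmp9 was therefore the one member with a UMI in more spots of the old marrow than of the young bone.

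More members had a UMI in the same spot at P8 than at 89 weeks. In the P8 section 155 of 1085 spots had a UMI of 6 of the 7 genes and 17 had all 7. In the 89-week section 444 of 932 spots had a UMI of 1 gene, 394 of 2, 74 of 3, 9 of 4, 1 of 5 and no spot of 6 or 7. These counts are unthinned and the P8 spots were deeper, so that depth and level cannot be told apart in them.

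Companion genes of resorption and differentiation, chosen with earlier results of these data known, had smaller median ratios than the members. Of 12 genes of the resorption machinery, 5 were at least 2-fold higher at P8, 2 at least 2-fold higher at 89 weeks and 5 within 2-fold, with a median log2 ratio of 0.36. The higher ones were Mmp14, a membrane-bound collagenase also made by osteoblasts and stroma (ratio 51.5), Sh3pxd2a, a scaffold of podosomes (17.9), the pump subunit gene Atp6v1b2 (3.21), the chloride-proton exchanger gene Clcn7 (2.41) and Tcirg1, the a3 subunit of the osteoclast proton pump (2.27). The integrin gene Itgb3, which platelets and megakaryocytes also express, had a ratio of 0.292, and Snx10, a sorting nexin gene, one of 0.157. Ostm1 (0.902), Plekhm1 (0.998), Atp6v1c1 (1.66), Car2 (0.703) and Src (0.553) were within 2-fold.

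Of 15 genes of osteoclast differentiation, 9 were at least 2-fold higher at P8, 3 at least 2-fold higher at 89 weeks and 3 within 2-fold, with a median log2 ratio of 1.44. The ligand RANKL (Tnfsf11) had a ratio of 11.5, its receptor RANK (Tnfrsf11a) one of 10.7 and the decoy receptor osteoprotegerin (Tnfrsf11b) one of 53.7. The M-CSF receptor gene Csf1r had a ratio of 2.95, the transcription factor genes Mitf, Nfatc1 and Fos ratios of 5.99, 2.71 and 2.00, and Siglec15, a sialic acid receptor of osteoclasts, one of 18.2. Siglec15 had 11 counts at 89 weeks. Oscar, a costimulatory receptor gene, had 352 counts at P8 and 0 at 89 weeks. The adaptor genes Fcer1g and Tyrobp and the receptor gene Trem2, which other myeloid cells share, had ratios of 0.252, 0.431 and 0.277.

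Other cell types moved between these sections as well. All 7 genes of the bone region, all 9 of cartilage and all 8 of muscle were at least 2-fold higher at P8, with Col1a1 at 299-fold, while all 10 neutrophil genes were at least 2-fold higher at 89 weeks, with a median log2 ratio of -3.01. None of 10 genes of C1q macrophages was at least 2-fold higher at P8, and C1qa, C1qb and C1qc had ratios of 0.778, 1.92 and 1.49. Another 4 of the 10 were at least 2-fold higher at 89 weeks, Cd5l (0.0701), Hmox1 (0.139), Cd163 (0.277) and Slc40a1 (0.415). The part of these differences in tissue makeup in the ratios of the osteoclast genes was not tested.

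Within the P8 section the counts of the abundant members were spread unevenly over spots. Of 1085 spots, 84 had no UMI of Acp5, 12 none of Ctsk and 65 none of Mmp9. The 109 spots richest in a gene held 52.3% of the counts of Acp5, 51.4% of Ctsk and 50.9% of Mmp9. The 109 deepest spots held 26.0% of all UMIs. Ranking spots by the gene itself raises its share, and no other gene was ranked so. For the sparser members such a share is set largely by the low count, and that of Calcr is 100%. The highest spot had 592 UMIs of Ctsk, 522 of Mmp9 and 382 of Acp5. In the 89-week section no spot had more than 10 UMIs of Ctsk or 11 of Acp5, and the highest of Mmp9 was 42.

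Places in the P8 bone were then defined without the members, as the 109 spots with the largest share of UMIs in osteoblast and osteocyte genes (bone-rich spots), in cartilage genes, in muscle genes or in genes of C1q macrophages. Ctsk stood at 4173 CPM in the bone-rich spots, 2274 CPM in marrow spots, 1085 CPM in the C1q-rich spots, 465 CPM in the muscle-rich spots and 340 CPM in the cartilage-rich spots. Acp5 followed the same order, from 2616 CPM in the bone-rich spots through 1545 CPM in marrow and 616 CPM in the C1q-rich spots to 230 CPM in the muscle-rich spots and 168 CPM in the cartilage-rich spots. Mmp9 stood at 2604 CPM in the bone-rich spots and 1297 CPM in marrow spots, but at 2496 CPM in the 536 spots outside these classes, where Ctsk had 2976 CPM and Acp5 1914 CPM. Atp6v0d2, Ocstamp and Dcstamp were likewise highest in the bone-rich spots, at 135.3, 48.8 and 40.3 CPM, and lowest in the cartilage-rich spots, at 10.6, 4.23 and 2.11 CPM. The bone-rich spots and the marrow spots overlap.

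Calcr, with 56 counts, differed from this layout in the muscle-rich spots. It had 5.03 CPM in the bone-rich spots from 10 counts (95% Poisson interval 2.41 to 9.25), 2.53 CPM in marrow spots, 1.24 CPM in the C1q-rich spots and no count in the cartilage-rich spots, the order of Ctsk and Acp5. It had 9.48 CPM (95% Poisson interval 5.52 to 15.2) in the muscle-rich spots, which held 17 of its 56 counts, 30.4%, on 109 of 1085 spots, with an interval that overlaps that of the bone-rich spots. Over the other members the muscle-rich spots were among the places with the lowest levels.

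**Figure D2:**
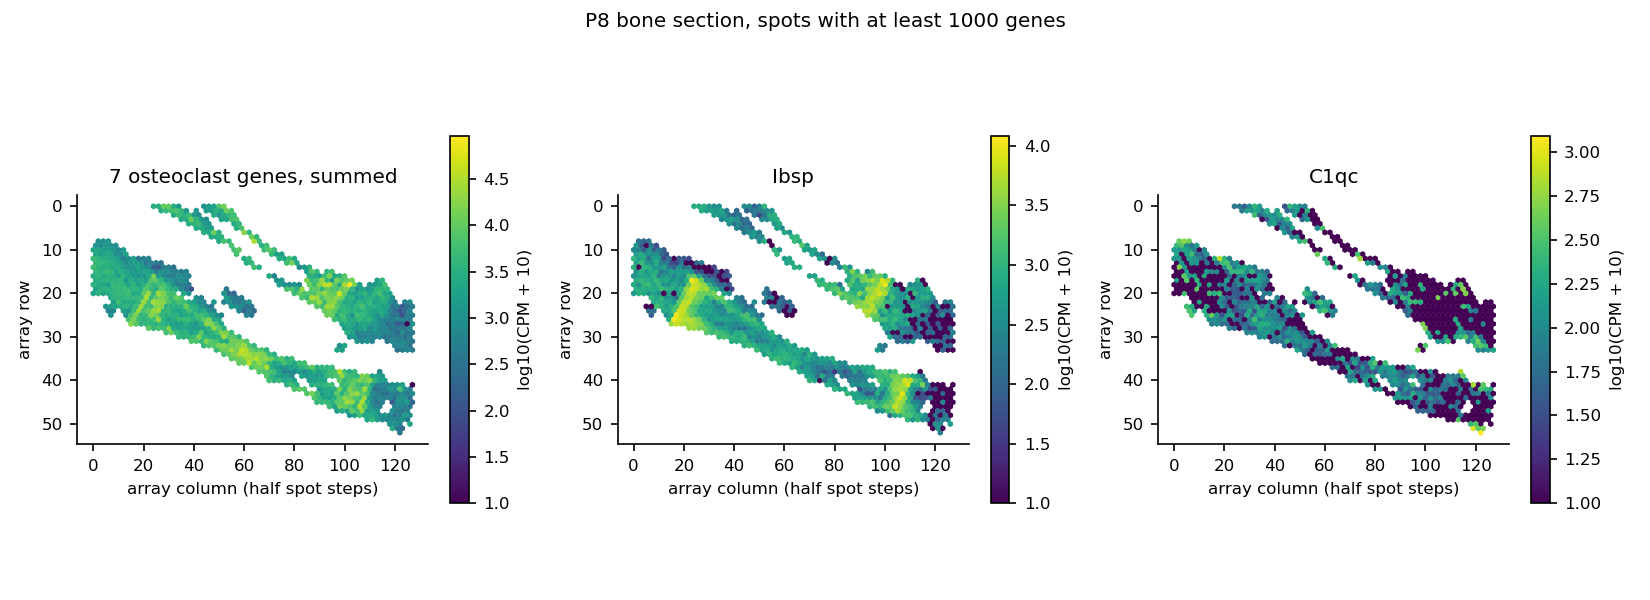
Spots of the P8 bone section at their array positions, coloured by log10(CPM + 10) of the 7 osteoclast genes summed (left, a sum led by Ctsk, Mmp9 and Acp5), of Ibsp (middle) and of C1qc (right). The members and Ibsp share bands of high spots, while the members also run high in places where Ibsp is lower, and C1qc is sparse. Spots were not assigned to parts of the bone by their position.

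Levels differed with distance from these places. Ctsk went from 4173 CPM in the bone-rich spots to 3130 CPM 1 array step away, 2527 CPM at 2 steps and 965 CPM at 6 steps or more. Acp5 went from 2616 to 2060, 1674 and 536 CPM over the same distances. Mmp9 was as high 1 step away as in the bone-rich spots, 2635 against 2604 CPM with overlapping Poisson intervals, and 638 CPM at 6 steps or more.

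Distance from the cartilage-rich spots set Mmp9 apart from Ctsk and Acp5. Mmp9 went from 336 CPM in the cartilage-rich spots to 1898 CPM 1 step away and 2810 CPM at 2 steps, reached 3275 CPM at 3 steps, and stood at 1553 CPM at 6 steps or more. Ibsp, the bone sialoprotein gene of osteoblasts and hypertrophic chondrocytes, had its highest level at the same 3 steps, 2878 CPM, against 221 CPM in the cartilage-rich spots and 878 CPM at 6 steps or more. Ctsk and Acp5 had their highest levels farther out, 3354 and 2051 CPM at 5 steps, and kept 2553 and 1695 CPM at 6 steps or more. Atp6v0d2 was level from 3 steps outward, at 94.6, 93.9, 93.8 and 84.0 CPM.

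**Figure D3:**
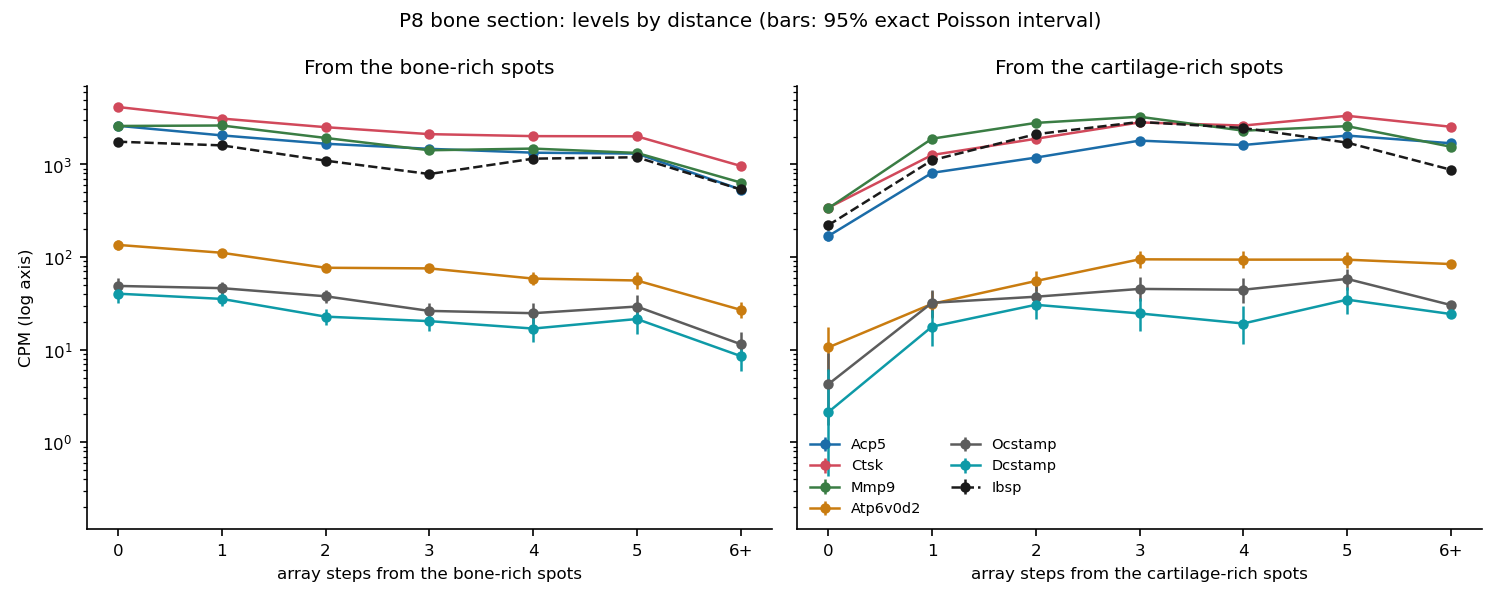
Levels of 6 osteoclast genes and Ibsp in the P8 section, in CPM on a log axis, by array steps from the bone-rich spots (left) and from the cartilage-rich spots (right), with 95% exact Poisson intervals. All 6 genes are lowest in the cartilage-rich spots, and Mmp9 and Ibsp both peak at 3 steps from them, at 3275 and 2878 CPM.

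Correlation over spots was taken as Pearson's r of log2(UMIs scaled to 6000 per spot + 1) within a section. Spots share a library and neighbours share tissue, so r is a description and carries no p. In the P8 section r with Ibsp was 0.72 for Mmp9, 0.60 for Ctsk, 0.58 for Acp5, 0.40 for Atp6v0d2, 0.34 for Ocstamp and 0.30 for Dcstamp over 1085 spots. With Col1a1, the gene of the main bone collagen, which tendon and other connective tissue also make, r was 0.48 for Ctsk, 0.42 for Mmp9, 0.38 for Acp5, 0.28 for Atp6v0d2, 0.19 for Dcstamp and 0.17 for Ocstamp. With C1qc no member had a positive r, and the values ran from -0.13 to -0.02. Calcr had r of -0.05 with Ibsp and -0.02 with Col1a1. Thus 6 members had r over 0.2 with Ibsp, 4 with Col1a1 and none with C1qc. These counts are given without the share of all detected genes over that cut, and describe the members alone.

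Much of the relation with bone matrix lay at the scale of regions. When the mean of the adjacent spots was subtracted from each spot, r with Ibsp became 0.11 for Mmp9, 0.10 for Ctsk and 0.06 for Acp5, and no member kept r over 0.2 with Ibsp or Col1a1. The members kept their relation with one another. Among the 15 pairs of the 6 genes other than Calcr, r ran from 0.40 to 0.86 with a median of 0.53, and from 0.17 to 0.55 with a median of 0.28 after the subtraction. Acp5 with Ctsk went from 0.86 to 0.53, Acp5 with Mmp9 from 0.83 to 0.55 and Ctsk with Mmp9 from 0.81 to 0.49. With spots thinned to 2000 UMIs the median of the 15 pairs was 0.24. The 6 pairs with Calcr had r of 0.02 to 0.08.

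**Figure D4:**
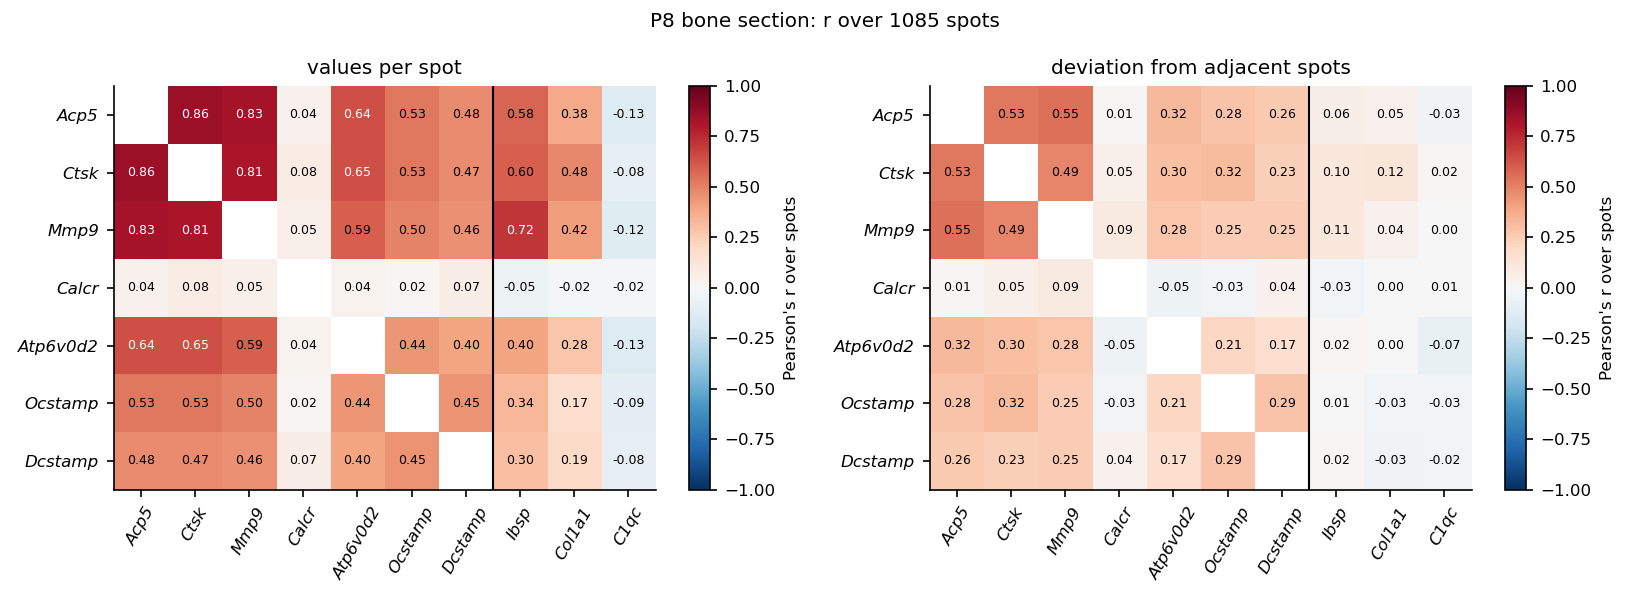
Pearson's r over 1085 spots of the P8 section between the 7 osteoclast genes and with Ibsp, Col1a1 and C1qc, from values per spot (left) and from the deviation of each spot from its adjacent spots (right). The block of 6 members keeps r of 0.17 to 0.55 on the right, whereas the columns of Ibsp, Col1a1 and C1qc stay between -0.07 and 0.12.

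The genes most like the members in the P8 section were found among 12361 others detected in at least 50 spots, by r with the member score, the mean of the standardised values of the 7 genes. The 10 highest were Mt3 (0.74), Mmp13 (0.74), Spp1 (0.72), Mt1 (0.72), Slc37a2 (0.71), Arsb (0.70), Ckb (0.69), Slc9b2 (0.68), Cd68 (0.67) and Tcirg1 (0.65). Tcirg1 encodes a subunit of the osteoclast proton pump, Slc9b2 a sodium-proton antiporter, Arsb a lysosomal sulfatase, Ckb brain-type creatine kinase and Cd68 a lysosomal glycoprotein of the macrophage lineage. Mt1 and Mt3 encode metallothioneins, Spp1 osteopontin and Mmp13 collagenase 3, the latter pair also made by osteoblasts and hypertrophic chondrocytes. Ibsp came at rank 18 with r of 0.58, Col1a1 at rank 100 and C1qc at rank 11577.

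After subtraction of adjacent spots Arsb kept r of 0.51 with the score, Mt3, Slc37a2 and Slc9b2 0.46 each, Cd68 and Mt1 0.45 each, Ckb 0.42, Tcirg1 0.38, Mmp13 0.36 and Spp1 0.31, against 0.07 for Ibsp. Between the sections Mt3 stood at 184 CPM at P8 and 1.78 CPM at 89 weeks, Mmp13 at 1207 and 19.3 CPM, Spp1 at 3345 and 59.2 CPM, Slc9b2 at 73.8 and 1.30 CPM, and Slc37a2 at 94.7 and 4.62 CPM. Mt1 (611 and 152 CPM), Arsb (277 and 66.3 CPM) and Cd68 (171 and 104 CPM) had smaller ratios, of 4.02, 4.18 and 1.64.

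For single members the 3 most similar genes were Spp1, Mmp13 and Mt1 for Acp5 (r 0.76, 0.76 and 0.72), Spp1, Mmp13 and Mt3 for Ctsk (0.77, 0.73 and 0.72), and Mmp13, Spp1 and Ibsp for Mmp9 (0.82, 0.76 and 0.72). They were Mt3, Mt1 and Slc37a2 for Atp6v0d2 (0.59, 0.59 and 0.57), Mt3, Slc37a2 and Cd68 for Ocstamp (0.50, 0.50 and 0.47), and Arsb, Mt3 and Ckb for Dcstamp (0.47, 0.47 and 0.46). For Calcr they were Musk, a receptor tyrosine kinase gene of muscle, Kcnc4 and Neurl3, at 0.31, 0.28 and 0.26 over spots in which Calcr had 56 counts in all.

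Genes of the osteoclast lists had mixed relations with the score. Siglec15 (0.56), Csf1r (0.53), Itgb3 (0.51), Tyrobp (0.49), Tnfrsf11a (0.43), Oscar (0.43), Ostm1 (0.42), Tnfsf11 (0.36) and Clcn7 (0.36) were among the higher ones, and Trem2 had r of 0.01. The median r was 0.35 over 12 resorption genes, 0.28 over 15 differentiation genes and 0.38 over 13 bone matrix genes. It was 0.18 over 8 erythroid genes, 0.16 over 10 neutrophil genes and 0.10 over 9 of 10 monocyte and macrophage genes, and -0.02 over 10 genes of C1q macrophages, -0.14 over 8 muscle genes, -0.33 over 9 cartilage genes and 0.03 over all genes compared.

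In the 89-week marrow little of this pattern was left to measure. The median r between the 6 genes other than Calcr was 0.05, the r of each gene with the mean of its adjacent spots was 0.06 for Acp5, 0.11 for Ctsk and 0.33 for Mmp9 (0.81, 0.82 and 0.85 at P8), and the only r over 0.2 with Col1a1, Ibsp or C1qc was that of Ctsk with Col1a1, 0.24, which was 0.12 as Spearman's rho and 0.17 after thinning. The genes with the highest r with the score, here of Acp5, Ctsk and Mmp9, were Mmp13 (0.30), Spp1 (0.23), Col1a2 (0.21), the tenascin gene Tnc (0.20), S100a11 (0.19), the osteocalcin gene Bglap2 (0.19), Col1a1 (0.19), S100a9 (0.18), S100a6 (0.18) and S100a8 (0.17), thus bone genes beside genes abundant in neutrophils.

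Ctsk in the old marrow was concentrated in few spots. The 15 spots with at least 3 Ctsk UMIs held 69 of the 179 counts, 38.5%. These spots, chosen by their Ctsk, had 340 CPM of Acp5 (95% Poisson interval 258 to 438) against 71.7 CPM in the other 917 spots, and 46.0 CPM of Atp6v0d2 (19.9 to 90.7) against 5.08 CPM. They also had 3545 CPM of Col1a1 against 128 CPM and 270 CPM of the osteocalcin gene Bglap against 11.3 CPM. The cartilage collagen gene Col2a1 had 242 against 8.47 CPM. Ibsp differed less, at 121 CPM (95% Poisson interval 74.8 to 185) against 43.9 CPM, with 5.47% of its counts in these spots. C1qc had 34.5 CPM against 47.2 CPM with overlapping intervals, and Mmp9 1260 against 895 CPM. Genes of bone and cartilage were thus higher in the same few spots as Ctsk, Acp5 and Atp6v0d2, and their part in these levels was not tested.

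Neutrophils carry gelatinase B in their granules, and Mmp9 at 89 weeks moved with neutrophil genes. In the 94 spots with the largest share of neutrophil genes Mmp9 had 1043 CPM (95% Poisson interval 974 to 1117), and in the 94 with the smallest 563 CPM (516 to 614). In the P8 section the order was the reverse, 910 CPM (881 to 940) in the 109 highest and 1731 CPM (1675 to 1788) in the 109 lowest spots. The 3 genes most like Mmp9 at 89 weeks were Tmsb4x, the lactoferrin gene Ltf of neutrophil granules and Actb, at r of 0.32, 0.29 and 0.29.

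The EDTA-treated adult bone gave little. In its 15 passing spots Mmp9 had 28 counts, Ctsk 6, Acp5 3 and the other members 0, where 3 counts equal 80.7 CPM. Over all 814 in-tissue spots, with 449883 UMIs, Mmp9 stood at 1118 CPM (503 counts), Ctsk at 171 CPM (77 counts) and Acp5 at 156 CPM (70 counts), beside 954 CPM of Col1a1 and 64.5 CPM of Ibsp. Atp6v0d2, Calcr, Dcstamp and Ocstamp had 6, 4, 3 and 2 counts. The Ctsk level of this adult bone lay between those of the P8 and 89-week sections, 135.1 to 213.9 CPM by its Poisson interval.

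Outside bone, Acp5 and Ocstamp were above their 89-week marrow levels in all 11 sections, while Ctsk and Mmp9 were below theirs in all 11. The level of Acp5 was 229 CPM in the E13.5 and 257 CPM in the E14.5 fetal liver, 306 CPM in the purchased adult spleen, 299 and 88.1 CPM in the wild-type and 313 and 139 CPM in the knockout fetal livers of the cross, and 287, 344, 327 and 347 CPM in its spleens. All 11 levels were above the 77.2 CPM of the 89-week marrow, that of wild-type fetal liver 4 the least. Ctsk in the same 11 sections ran from 1.77 to 16.9 CPM, Mmp9 from 1.41 to 54.0 CPM, Ocstamp from 2.92 to 12.7 CPM, Calcr from 0 to 10.2 CPM, Atp6v0d2 from 0.157 to 8.28 CPM and Dcstamp from 0.0356 to 5.92 CPM.

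In fetal liver, Acp5 moved most with erythroid genes in fetal livers 4 of the cross, which stand apart from the rest. The wild-type and the knockout section numbered 4 had 7341 and 11673 CPM of 8 hepatocyte genes against 106934 and 51699 CPM in the sections numbered 2, and 709 and 90.5 CPM of 9 cartilage genes against 21.0 and 20.8 CPM. Of 8 muscle genes, wild-type fetal livers 2 and 4 had 3337 and 1465 CPM and the knockouts 374 and 130 CPM (29.2 and 26.5 CPM in the purchased livers). Whether these sections hold tissue beside the liver was not tested, and the contrasts below rest on all their passing spots. In wild-type fetal liver 4, Acp5 had 244 CPM in the spots richest in erythroid genes and 5.50 CPM in the poorest (10% of spots each), with r of 0.89 between Acp5 and the erythroid list. In knockout fetal liver 4 the levels were 256 and 6.69 CPM and r was 0.77. Fetal livers 2 had 304 against 133 CPM (wild type) and 290 against 212 CPM (knockout), whereas the purchased livers had 208 against 196 CPM at E13.5 and 233 against 252 CPM at E14.5, with little contrast.

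In spleen the order was the opposite. Acp5 had 257 CPM in the erythroid-rich and 354 CPM in the erythroid-poor spots of the purchased spleen, and in the 4 spleens of the cross the levels were 170 against 301, 233 against 353, 268 against 360 and 254 against 336 CPM. Mmp9 in spleen was higher in neutrophil-rich than in neutrophil-poor spots, at 37.3 against 16.0 CPM in the purchased spleen, 87.1 against 31.9 and 119 against 55.3 CPM in the wild-type spleens, and 31.1 against 22.0 and 41.6 against 12.8 CPM in the knockout spleens.

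The study compared the spatial relations of cell types between the genotypes of the cross. Here their gene expression was compared. C1qa itself had 1939 and 1023 counts in the wild-type and 1 and 1 in the knockout fetal livers, and 4343 and 1135 in the wild-type and 2 and 1 in the knockout spleens, so that the sections matched their labels. For each tissue, counts summed per section were compared, knockout minus wild type, 2 sections against 2.

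In spleen 1 of the 7 members changed. Mmp9 had 45.9 and 54.0 CPM in the wild-type spleens and 20.6 and 22.3 CPM in the knockout spleens. The genotypes did not overlap. Wild-type spleen 2, at 54.0 CPM, was the shallowest, with a median of 2293.5 UMIs per passing spot. The other spleens of the cross had medians of 7846 to 13937.5 UMIs. The log2 difference of Mmp9 was -0.94 (SE 0.18, adjusted p = 0.0014, edgeR quasi-likelihood test). In that test 6.79% of 18895 genes were lower and 13.8% higher in the knockout, and for 51.5% of genes every wild-type section lay above every knockout section. The call was lost in a joint fit of both tissues, with an adjusted p of 0.73 (edgeR). That fit called 0 of 19180 genes in spleen and missed the deleted gene C1qa (log2 difference -10.8), so that it cannot decide on Mmp9. With any 1 spleen left out, a fit in which the lone section is assumed to vary like the other genotype, adjusted p ran from 6.8e-05 to 0.038 (edgeR).

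The 4 spleens also differed in neutrophil genes, with which Mmp9 moved within sections. Of 10 neutrophil genes 8 were lower in the knockout, with a median log2 difference of -1.65, none of the 10 was at 0 in any spleen, and their summed level was 653 and 557 CPM in the wild types against 82.7 and 136 CPM in the knockouts. The part of neutrophils in the Mmp9 difference was not tested.

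**Figure D5:**
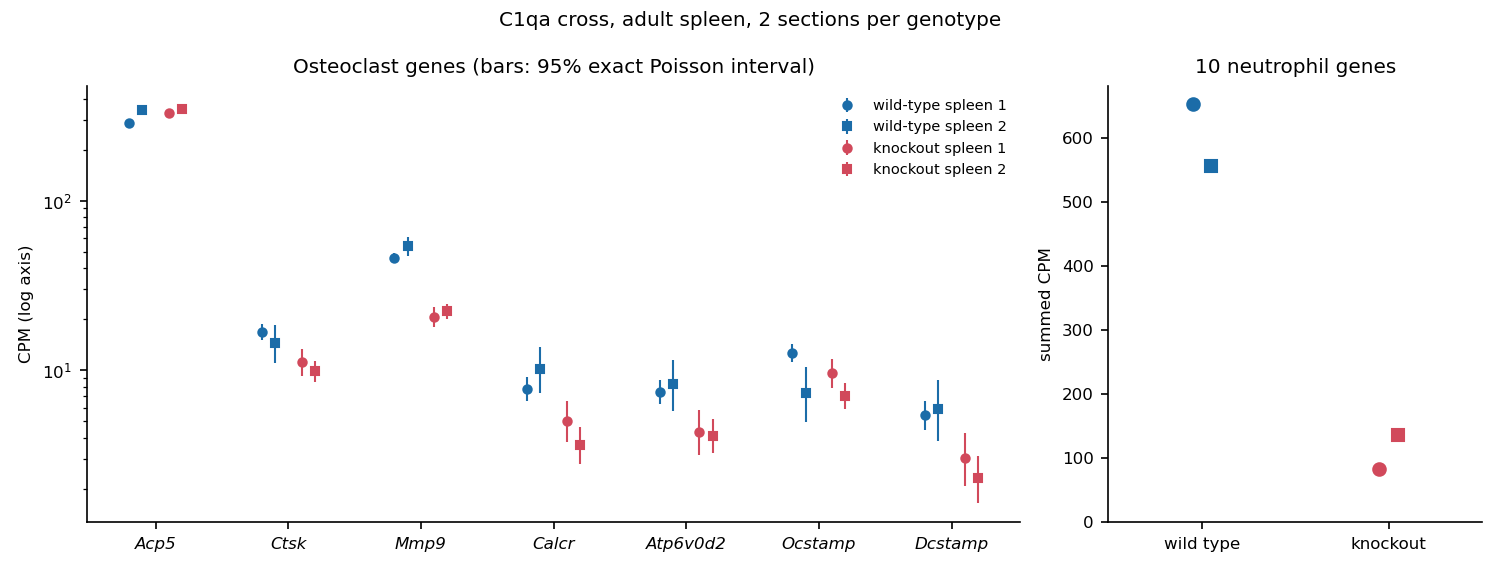
Levels of the osteoclast genes in the 4 spleens of the cross (left, CPM on a log axis, 95% exact Poisson intervals) and the summed CPM of 10 neutrophil genes in the same spleens (right). Mmp9 lies at 45.9 and 54.0 CPM in the wild types against 20.6 and 22.3 CPM in the knockouts, and the neutrophil genes differ in the same direction.

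The other 6 members did not pass the test in spleen. Dcstamp had 5.42 and 5.92 CPM against 3.02 and 2.30 CPM (log2 difference -0.83, SE 0.34, adjusted p = 0.080, edgeR). Calcr had 7.78 and 10.2 CPM against 5.01 and 3.62 CPM (-0.78, SE 0.30, adjusted p = 0.067, edgeR), and Atp6v0d2 7.47 and 8.28 CPM against 4.34 and 4.11 CPM (-0.62, SE 0.29, adjusted p = 0.12, edgeR). In all 3 every wild-type section lay above every knockout section, as it did for 51.5% of all genes tested. The albumin gene Alb, which has no known place in spleen, was at like levels and also lower in the knockouts, with 5.17 and 11.4 against 3.12 and 2.36 CPM. The muscle gene Acta1 was lower than these, at 0 to 0.71 CPM in the 4 spleens. The part of such a background in Dcstamp, Calcr and Atp6v0d2 was not tested. Acp5 had a log2 difference of 0.36 (SE 0.19, adjusted p = 0.15), Ctsk one of -0.34 (SE 0.22, adjusted p = 0.25) and Ocstamp one of -0.11 (SE 0.27, adjusted p = 0.77) by edgeR.

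Of 12 resorption genes 4 were higher in the knockout spleens (Atp6v1c1, Plekhm1, Atp6v1b2 and Sh3pxd2a, log2 differences of 1.15, 0.78, 0.73 and 0.55) and the carbonic anhydrase gene Car2, which erythroid cells also express, was lower (-1.96). Of 8 erythroid genes 6 were lower too, with a median log2 difference of -1.78. The summed level of the 8 was 41090 and 9603 CPM in the wild types against 5389 and 13472 CPM in the knockouts, so that in this sum the genotypes overlapped. Of 15 differentiation genes Nfatc1 (0.72) and Spi1 (0.55) were higher, and Trem2 (-0.79) and the M-CSF gene Csf1 (-0.62) were lower. The median log2 difference was 0.33 and -0.05 over these lists, against -0.08 over all genes tested.

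In fetal liver no member passed the test. The log2 differences ran from -1.16 for Mmp9 (wild type 30.8 and 6.09, knockout 12.9 and 8.50 CPM) to 1.19 for Atp6v0d2 (0.594 and 1.01 against 1.21 and 3.33 CPM), with adjusted p of 1.00 for each by edgeR. The percentage of all 18986 genes called was 0, while 138 genes had an unadjusted p under 0.05 and DESeq2 called 14. The deleted gene C1qa, with a log2 difference of -10.2, was not called by edgeR either, so that this test cannot decide on the members. With the litter as a block 157 genes were called, C1qa among them (adjusted p = 2.6e-69, edgeR) and no member. No member passed the test of a different genotype effect in the 2 tissues. The interaction test called 0% of 19180 genes, while 2018 genes had an unadjusted p under 0.05 (edgeR) and DESeq2 called 9. The smallest p among the members was that of Atp6v0d2 (log2 difference of differences -1.83, SE 0.52, adjusted p = 0.45, edgeR).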

How the data were processed

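Spatial transcriptomes of 14 mouse sections were analysed. The authors deposited raw UMI counts per gene and spot, not normalized, made with Space Ranger, with mm10 named in the submitters' processing notes and versions not given in the sources used here. Other deposited tables give the names, array positions and tissue marks of the spots and the identifiers of the genes. The tables of purchased mice also cover off-tissue spots and mark 304 features as deprecated, which took 0.853% of UMIs at P8 and 0.0308% at 89 weeks.

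In-tissue spots with at least 1000 genes were kept, as in the study, and levels were computed as CPM of counts summed per section. Ratios carry exact conditional intervals and levels exact Poisson intervals at 95%. Genes with at least 10 counts in the P8 and 89-week sections together were compared, and 2-fold was the call. r used log2 of counts scaled to 6000 per spot plus 1. Adjacent spots are the neighbours on the hexagonal array, and spots rich in a list are the 10% with its largest share of UMIs.

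Genotypes were compared with edgeR 4.0.16 (TMM, quasi-likelihood test, Benjamini-Hochberg over all genes at 0.05) in R 4.3.3 and, as an alternative, DESeq2 1.42.0. The genotype and correlation code was tested on simulated data. Sections, not spots, were the replicates. The reporting summary of the study counts its Visium spleens as biological replicates, without naming the mouse of each section. For spleen, p-values measure the spread between sections. Fetal livers with the same number are littermates by the methods of the study, and their deviations correlated (r 0.64). Spleens share a number only (r 0.03).

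Named were all members, the 10 genes with the highest r with the member score at P8 and at 89 weeks, the 3 with the highest r with each member at P8, and genes of the companion lists. The 3 genes most like Mmp9 at 89 weeks, and Bglap, Col2a1, Alb and Acta1, were named after their values were seen. Members and lists were chosen with earlier results of these data known. Alternatives were other depths, spot sets, scalings, filters and left-out sections. Images were not used here.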

Additional observations from a re-analysis of the deposited data

Results flagged for a closer look

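Spots outside the tissue, which the comparisons above do not use, held osteoclast transcripts above the floor in both bone sections. In the 3897 off-tissue spots of the P8 section, with 10422598 UMIs, Ctsk stood at 1802 CPM, Acp5 at 1140.5 CPM, Mmp9 at 1112 CPM, Atp6v0d2 at 60.9 CPM, Ocstamp at 22.8 CPM, Dcstamp at 15.7 CPM and Calcr at 2.59 CPM, each above the floor of 0.288 CPM. For all members except Calcr these levels were below those in tissue. In the 4058 off-tissue spots of the 89-week section, with 8390063 UMIs, Mmp9 stood at 893 CPM, Acp5 at 109 CPM, Ctsk at 63.2 CPM, Atp6v0d2 at 8.58 CPM, Ocstamp at 0.715 CPM and Dcstamp at 0.596 CPM, above a floor of 0.358 CPM, and Calcr had no count. There Ctsk, Acp5 and Col1a1 (296 against 198 CPM) were higher off the tissue than in it, with Poisson intervals that did not overlap. The source of these transcripts was not tested.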

How the results depend on the processing

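The count of 6 members at least 2-fold higher at P8 stayed at 6 in all in-tissue spots, in marrow spots alone and under TMM scaling. It was 5 with spots thinned to 2000 UMIs. The member lost was Calcr, with 5 thinned counts at P8 and 0 at 89 weeks. Its ratio of 1.44, with the 0 set to 3 counts, is a lower bound, so that thinning cannot decide on it. Members with r over 0.2 fell from 6 to 3 for Ibsp at P8 with thinned spots and to 0 on subtracting adjacent spots, from 4 to 0 for Col1a1 at P8 on subtraction, and from 1 to 0 for Col1a1 at 89 weeks with thinning, Spearman's rho or subtraction. The median r between members, both alternatives chosen after seeing the data, was 0.24 with thinning and 0.28 on subtraction.

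In fetal liver DESeq2 called 14 genes, leaving out 1 section gave 0 to 109, and the litter as a replicate block gave 157. In spleen the 3886 calls became 0 in a joint fit of both tissues, 4968 with the replicate number as a block, and 240 to 4972 when 1 section was left out, the lowest without knockout spleen 2. DESeq2 called 9 genes in the interaction. Upper-quartile scaling moved the spleen split from 2603 higher and 1283 lower to 1197 higher and 4400 lower, and the median of all genes from -0.08 to -0.37, with Calcr and Dcstamp then called (adjusted p 0.026 and 0.037, edgeR). The block also called Calcr in spleen (adjusted p 0.036, edgeR), without knockout spleen 1 Calcr was called (0.034), and without wild-type spleen 2 Acp5 was (0.028). The block changed no other call of a member.

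Signs turned in fetal liver, where no member was called. Acp5 had a log2 difference of 0.14 with upper-quartile scaling, 0.15 with the block and 0.0013 in the joint fit, and Ctsk 0.14 with upper-quartile scaling. With 1 section left out the log2 differences in fetal liver ran from -1.49 to 1.85 for Acp5, -2.17 to 1.22 for Mmp9, -0.42 to 0.22 for Ctsk, -0.89 to 0.77 for Calcr, -0.53 to 1.62 for Ocstamp and -0.030 to 1.29 for Dcstamp, and in spleen from -0.38 to 0.42 for Ocstamp. The causes were not tested. Depth limits Calcr, Ocstamp and Dcstamp at 89 weeks, with 3 to 5 counts each, and all members in the EDTA-treated bone.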
